A study of Mus musculus with 31 samples.

Results

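Addition of the vehicle DMSO was compared with no treatment in peritoneal macrophages of 2 genotypes, using 16 of the study's 31 RNA-seq libraries. The 4 groups of 4 libraries were KO cells with DMSO, KO cells left untreated, control cells with DMSO and control cells left untreated. All cells came from C57BL/6 mice aged 8.5 weeks. The mice received 3% thioglycollate in the peritoneal cavity, and the macrophages it draws in were harvested after 4 days and cultured overnight in DMEM. DMSO was added for 24 h in the volume used for 1 uM rosiglitazone, a volume the labels leave out. The labels do not say when the untreated cells were lysed, so added DMSO and any difference in culture time cannot be told apart. The other 15 libraries are of cells with rosiglitazone or with IL4 (20 ng/mL).

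KO stands for PPARgammaMPKO, a macrophage knockout of PPARγ. The labels name neither the driver of the deletion nor the part of Pparg that was removed. Libraries were paired by genotype and replicate number, which gave 8 pairs, 4 of each genotype, and 1 DMSO effect was fitted over them. The series text speaks of 4 mice per genotype.

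DMSO is the solvent in which ligands such as rosiglitazone, an agonist of PPARγ, are dissolved. Cells with DMSO alone are the usual baseline for such ligands. Clustered histone genes encode the H1 linker and the H2A, H2B, H3 and H4 core proteins of chromatin. Most such messages end in a stem-loop in place of a poly(A) tail. The libraries were made with a total RNA kit, per the labels, so both kinds of message could be read. Immediate early genes, such as the Jun family, give short-lived messages for transcription factors that follow growth factors, stress and adhesion.

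Histone genes and Jun family genes were among those lower with DMSO, and promoters are shown for 3 such histone genes that hold different motifs and for Junb. Each run holds the 150 bases before the start of transcription on the gene's own strand, from RefSeq on GRCm38.p6, while the authors used mm9. The stretches are chr13:23761250-23761399 (minus strand) for Hist1h4a, chr13:23581418-23581567 (plus) for Hist1h4d, chr3:96220881-96221030 (minus) for Hist2h2ac and chr8:84978749-84978898 (minus) for Junb. Capitals mark 3 motifs searched on both strands. The first is TATAAA, which reads as TTTATA on the other strand. A second is the box CCAAT, which is written as ATTGG when it lies on the other strand. The last is the palindrome TGACGTCA. None of the marked runs overlap.
Hist1h4a: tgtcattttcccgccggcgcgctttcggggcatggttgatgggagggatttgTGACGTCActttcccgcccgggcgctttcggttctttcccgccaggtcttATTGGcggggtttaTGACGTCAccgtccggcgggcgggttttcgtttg
Hist1h4d: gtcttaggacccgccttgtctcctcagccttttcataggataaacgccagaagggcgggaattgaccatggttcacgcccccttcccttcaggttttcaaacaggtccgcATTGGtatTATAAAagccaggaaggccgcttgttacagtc
Hist2h2ac: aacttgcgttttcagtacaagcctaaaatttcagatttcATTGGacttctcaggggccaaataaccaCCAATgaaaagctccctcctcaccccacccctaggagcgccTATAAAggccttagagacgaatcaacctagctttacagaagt
Junb: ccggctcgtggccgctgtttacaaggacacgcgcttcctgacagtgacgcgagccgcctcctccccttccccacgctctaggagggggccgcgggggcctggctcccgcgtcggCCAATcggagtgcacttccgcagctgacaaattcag
Hist1h4a holds TGACGTCA at 2 places and ATTGG between them. Hist1h4d holds ATTGG just before TATAAA, Hist2h2ac holds CCAAT in both orientations before TATAAA, and Junb holds CCAAT alone. Over the 55 tested histone genes with a RefSeq promoter, CCAAT was found in 45 (81.8%), against 24.5% of all 32851 promoters. TATAAA was found in 22 (40.0%), against 7.57% of all, and TGACGTCA in 3 (5.45%), against 1.36%. By class, CCAAT was in 15 of 15 H2A, 14 of 14 H2B and 3 of 12 H4 promoters. CCAAT was in 15 of the 23 with a promoter that fell (65.2%) and in 30 of the 32 that did not pass (93.8%), so the promoters printed, which all hold it, are not typical of H4 genes. A match is a run of letters in this window and not a site of binding.

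The deposited FPKM (fragments per length of gene and number of reads) summed to 150719 and 166172 in untreated KO libraries 2 and 3, and to between 221837 and 305601 in the other 14. Each library was therefore rescaled by its median ratio to the geometric mean of each gene, and levels below are rescaled FPKM unless called deposited. Between 8628 and 9900 genes per library had 1 FPKM or more. No source used here gives read totals. Rn45s, a precursor of ribosomal RNA, was listed at 0 in untreated KO libraries 2, 3 and 4 and untreated control library 1 and in none of the DMSO libraries (0 of 8), where it ranged from 92.5 to 459 FPKM. Zeros were not confined to Rn45s or to untreated libraries. Lipa was listed at 0 in 2 DMSO and 4 untreated libraries and reached 785 FPKM elsewhere. Gpnmb, Flii, Tnpo1, Galnt6 and Nono were each at 0 in 1 DMSO library, and Serbp1 in 1 untreated library. The cause of these zeros was not tested.

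Macrophage markers were abundant in every library. The 18 markers of macrophage identity summed to between 7146 and 8247 FPKM with DMSO and to between 6535 and 8748 without treatment. Those of B cells, of T and NK cells, of mast cells and of erythroid cells each summed to under 3 FPKM in every library. The targeted gene did not separate the genotypes at the level of the whole gene. Pparg stood at 39.7, 43.7, 40.7 and 48.3 FPKM in KO cells with DMSO and at 42.6, 50.2, 35.7 and 49.0 FPKM in untreated KO cells. Control cells had 41.4, 41.7, 47.1 and 43.6 FPKM with DMSO and 46.8, 53.7, 49.1 and 48.5 FPKM untreated. The fitted difference between DMSO and untreated cells was -0.11 ± 0.05 (SE; limma, adjusted p = 0.255). No source used here gives the deleted part, so these values do not check the labels. Fabp4, a lipid carrier and target of PPARγ, had 151 to 213 FPKM in KO cells with DMSO and 332 to 405 FPKM in control cells with DMSO, with no overlap.

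With DMSO, 258 genes (2.56% of those tested) were lower and 21 genes (0.208%) were higher than in untreated cells. The test was limma on log2(rescaled FPKM + 1) over the 8 pairs, with Benjamini-Hochberg adjusted p over 10087 genes and a threshold of 0.05. All fold changes below are on that scale, which understates the change of low genes. Most changes were small. The median log2 difference was -0.30 over the genes that were lower and 0.23 over those that were higher, 34 of the lower genes passed a difference of 0.5 and 4 passed a difference of 1. The direction was shared by all 8 pairs for 175 of the lower and 12 of the higher genes, and by 7 pairs for 79 and 8. Over all genes tested, passed or not, 2.94% were lower and 1.06% higher in all 8 pairs.

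These calls rest on the pairing. With group means and no pairing no gene passed (0 in limma), although 893 had an unadjusted p under 0.05, against 2228 with pairing. On the deposited FPKM without rescaling, where the median of all genes was shifted by 0.14 (0.30 in KO cells), 74 genes were higher and 41 lower, and 31 genes were shared with the 279. The count also moved with single pairs. It was 107 without KO pair 1, 68 without KO pair 2, 675 without KO pair 3, 759 without KO pair 4, 55 without control pair 3 and 46 without control pair 4. Without KO pairs 2 and 3 together, whose untreated libraries have the low sums, it was 32. Without the 4 pairs whose untreated library has Rn45s at 0 it was 2575, with 1256 higher and 1319 lower, from 1 KO and 3 control pairs, where the lone KO pair is assumed to vary like the others. The part of the low sums and of Rn45s in these counts was not tested.

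**Figure D1:**
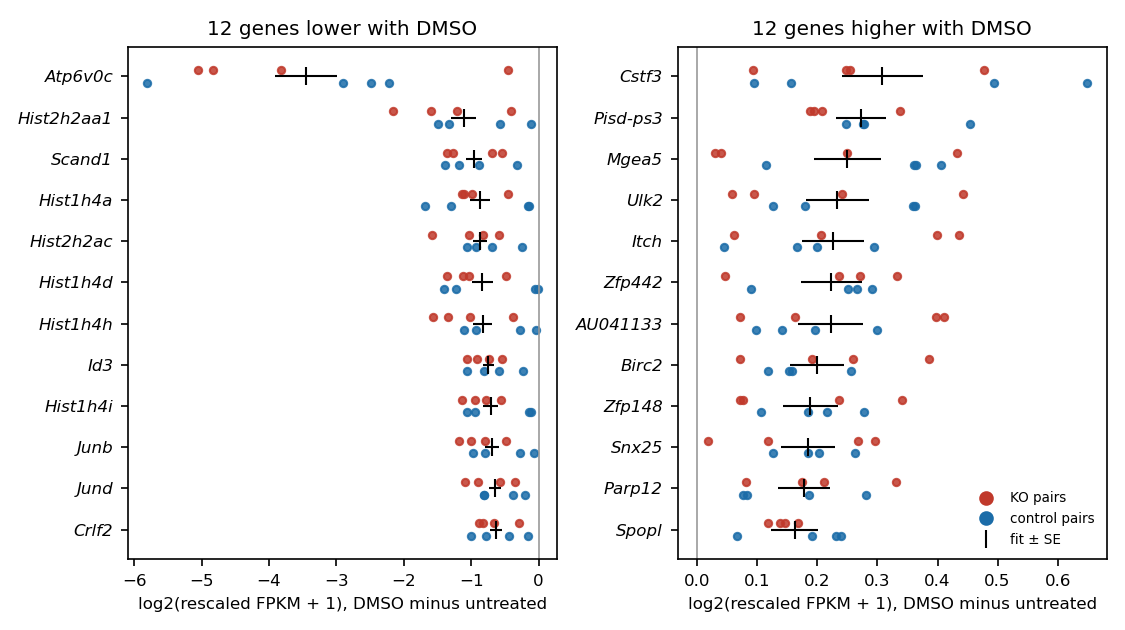
Difference between the DMSO and the untreated library of each pair, in log2(rescaled FPKM + 1), for the 12 lower and the 12 higher genes with the largest difference among those that passed and had 8 pairs of one sign. Points are the 4 KO pairs (red) and the 4 control pairs (blue), and black marks show the fitted difference with its SE. Atp6v0c reached -3.45, whereas the other lower genes lay between -1.11 and -0.63 and the higher genes between 0.16 and 0.31.

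Messages of histone genes were lower with DMSO in many cases. In the list of clustered histone genes, 11 of 21 tested members (52.4%) fell, against 2.56% of all genes tested, and none rose (0). Among tested genes with a longest transcript under 1000 bases, the share that was lower was 10.2%. The list's median difference was -0.51, against -0.00 over all genes. Hist2h2ac, which encodes an H2A protein, had 4.54, 4.56, 3.06 and 5.93 FPKM in KO cells with DMSO and 8.84, 10.4, 11.2 and 9.46 FPKM in untreated KO cells. In control cells it had 6.93, 4.29, 2.40 and 2.91 FPKM with DMSO and 11.8, 5.25, 5.45 and 7.17 FPKM untreated. The KO groups did not overlap and the control groups did. The fitted difference was -0.87 ± 0.11 (SE; limma, adjusted p = 0.00518), lower in 8 of 8 pairs.

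Genes for H4 were among them. Hist1h4h had 5.88, 11.5, 6.89 and 13.4 FPKM in KO cells with DMSO, against 16.4, 24.4, 22.3 and 17.7 FPKM in untreated KO cells. Control cells had 22.1, 9.29, 4.49 and 5.11 FPKM with DMSO, against 22.7, 11.4, 9.43 and 12.2 FPKM untreated. Control pairs 1 and 2 lay close together, the gap was wider in control pairs 3 and 4, and the KO groups did not overlap. The shared difference was -0.83 ± 0.15 (adjusted p = 0.0141). Hist1h4d, whose promoter is printed above, averaged 16.8 ± 8.5 FPKM with DMSO and 29.2 ± 10.5 FPKM untreated (SD, n = 8 each), a difference of -0.84 ± 0.15. Hist1h4a averaged 3.82 ± 2.26 FPKM with DMSO and 7.32 ± 2.96 FPKM untreated, and its difference was -0.87 ± 0.15. Hist1h4i differed by -0.71 ± 0.11, and Hist2h2aa1 of the H2A class by -1.11 ± 0.18.

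The linker histone genes Hist1h1c and Hist1h1e fell as well. Hist1h1c averaged 24.8 ± 7.47 FPKM with DMSO and 34.2 ± 6.17 FPKM untreated, a difference of -0.48 ± 0.08 (limma, adjusted p = 0.00973). Hist1h1e differed by -0.51 ± 0.08. Hist1h1b, a linker gene of dividing cells, did not pass, with 7.20 FPKM with DMSO and 6.58 FPKM untreated (difference 0.14 ± 0.13).

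All histone genes that can be told by symbol were then followed, a set chosen after values were seen. Of 67 such genes in the table, 60 were tested, 25 were lower and none were higher (0), with a median of -0.44. The longest transcripts of the 60 had a median length of 536.5 bases and a median GC content of 58.1%. Among all tested genes, 10.2% of those under 1000 bases and 5.77% of those with 55 to 60% GC were lower. The classes differed in their counts. H4 genes were lower in 11 of 13, H2A genes in 7 of 15, H3 genes in 3 of 11, H1 genes in 2 of 5 and H2B genes in 2 of 16. The median over H4 genes was -0.74 and that over H2B genes -0.32. Many of these genes are near-identical copies, and the sources do not say how reads that match several were counted, so the value of a single copy is uncertain. The calls also depend on the pairs kept, with 2 genes of 59 passing without KO pairs 2 and 3, 7 without control pair 4, 8 without control pair 3, 9 without KO pair 2 and 12 without KO pair 1. Calls over all genes dropped in these fits too. In the same order, 31 of 9914, 45 of 10062, 54 of 10049, 67 of 10012 and 105 of 9950 genes tested were lower. No histone gene was higher in any of these fits (0).

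**Figure D2:**
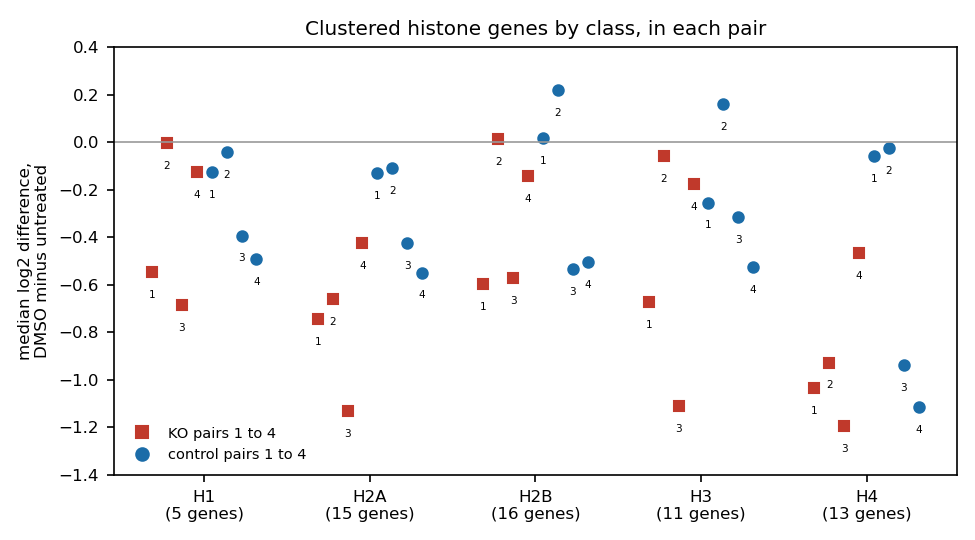
Median log2 difference (DMSO minus untreated) over the tested histone genes of each class, with one point per pair. Squares are KO pairs, circles are control pairs, and the small digits give the replicate number. For H4, KO pairs 1, 2 and 3 and control pairs 3 and 4 lie at -0.93 or below, and control pairs 1 and 2 lie near 0.

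The fall of histone messages was uneven among pairs. Over the 60 genes, the median differences of KO pairs 1 to 4 were -0.73, -0.21, -0.96 and -0.34, and those of control pairs 1 to 4 were -0.12, 0.02, -0.44 and -0.61. In KO pair 1, all 60 genes were lower with DMSO, whereas in control pair 2 this held for 29. Genes of the cell cycle and of DNA replication run with histone messages in dividing cells. None of the 26 tested members of their list passed (0), and their median was 0.04. A missed threshold does not show that they were unchanged, and the part of cell division in the histone values was not tested. Mki67, a marker of dividing cells, averaged 1.22 ± 0.74 FPKM with DMSO and 0.93 ± 0.70 FPKM untreated (difference 0.21 ± 0.10, adjusted p = 0.217).

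Jun family genes fell together. Among the immediate early genes, 5 of 17 tested members (29.4%) were lower, against 2.56% of all genes tested, none were higher (0), and the list's median was -0.16. Junb had 8.60, 10.8, 8.91 and 16.7 FPKM in KO cells with DMSO and 15.7, 22.6, 21.5 and 23.7 FPKM in untreated KO cells. Control cells had 20.5, 11.8, 6.20 and 7.67 FPKM with DMSO and 21.6, 14.4, 13.1 and 14.0 FPKM untreated. Both genotypes overlapped between treatments, since control library 1 was high under both and KO library 4 was high with DMSO, yet each pair was lower. The difference was -0.69 ± 0.11 (limma, adjusted p = 0.00901).

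Jund, whose protein pairs with Fos proteins in the factor AP-1, averaged 5.64 ± 2.24 FPKM with DMSO and 9.09 ± 2.23 FPKM untreated. Its difference was -0.64 ± 0.09 (adjusted p = 0.00651). Jun averaged 20.5 ± 2.30 FPKM with DMSO and 25.1 ± 3.16 FPKM untreated, a difference of -0.28 ± 0.06. The other members to fall were Zfp36, whose product marks cytokine messages for decay (-0.28 ± 0.06), and Ier2 (-0.37 ± 0.08). Fos itself did not pass, with 4.59 FPKM with DMSO and 5.24 FPKM untreated, nor did Egr2 (-0.16 ± 0.06, adjusted p = 0.132) or Atf3 (-0.07 ± 0.05).

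Id3, an inhibitor of helix-loop-helix transcription factors, shared the smallest adjusted p of all genes tested with Scand1 and Cdkn1c. It had 4.77, 7.95, 5.11 and 3.76 FPKM in KO cells with DMSO and 8.62, 15.8, 11.8 and 5.94 FPKM in untreated KO cells. Control cells had 5.58, 3.41, 2.20 and 1.88 FPKM with DMSO and 8.92, 8.25, 2.77 and 4.07 FPKM untreated. Levels varied more between mice than between treatments, and the groups overlapped within each genotype, but all 8 pairs were lower with DMSO. The difference was -0.75 ± 0.08 (adjusted p = 0.00494). It passed in 18 of 19 other settings, the exception being the fit with no pairing, and ranged from -0.87 to -0.59 over them.

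**Figure D3:**
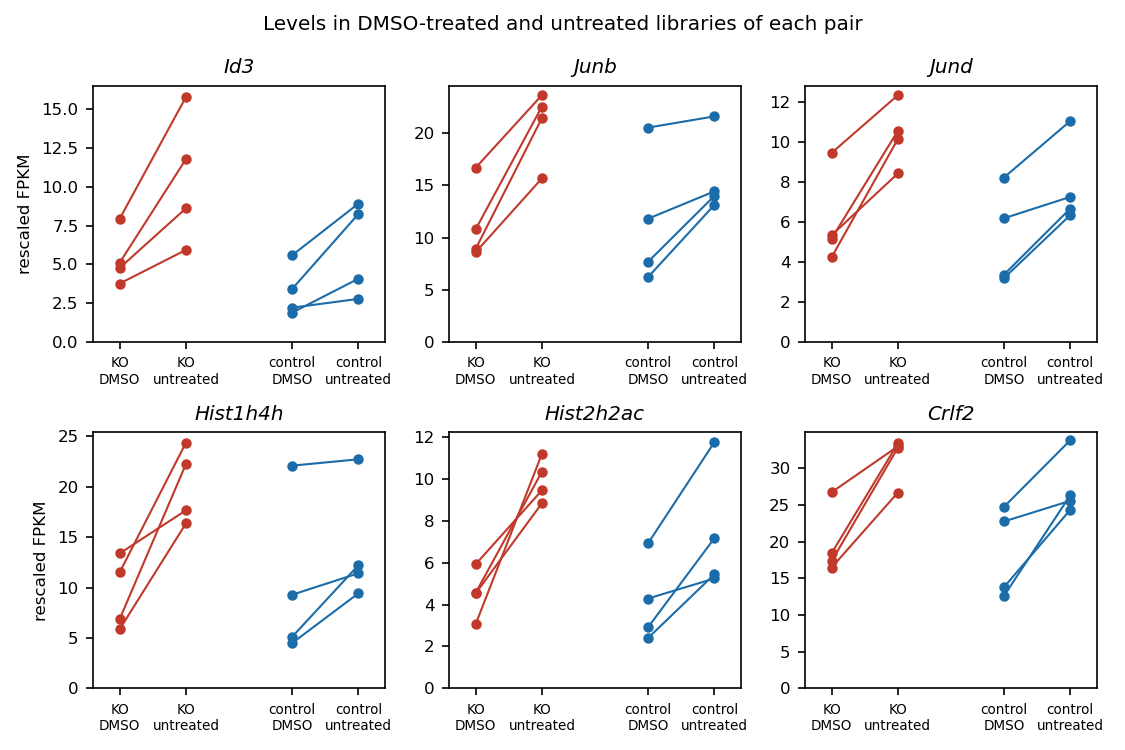
Rescaled FPKM of 6 lower genes in each library, with DMSO left of untreated in KO cells (red) and control cells (blue). Lines join the libraries of a pair. Id3 lies at 1.88 to 7.95 FPKM with DMSO and 2.77 to 15.8 FPKM untreated, and every line of the 6 genes is lower at its DMSO end.

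Scand1, which encodes a small protein with a SCAN domain, averaged 0.72 ± 0.69 FPKM with DMSO and 2.20 ± 0.60 FPKM untreated. Its difference was -0.96 ± 0.11 (limma, adjusted p = 0.00494), at low levels. Crlf2, a receptor chain for the cytokine TSLP, had 18.4, 17.3, 16.5 and 26.8 FPKM in KO cells with DMSO and 33.4, 32.8, 26.7 and 33.0 FPKM in untreated KO cells. In control cells it had 24.8, 22.8, 13.8 and 12.6 FPKM with DMSO and 33.8, 25.6, 24.4 and 26.3 FPKM untreated. KO library 4 and control libraries 1 and 2 were the high ones with DMSO. The difference of Crlf2 was -0.63 ± 0.09 (adjusted p = 0.00651).

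Atp6v0c, a subunit of the proton pump that acidifies lysosomes, had the largest difference of the genes that passed, but its value is uncertain. It had 0.00086 to 28.4 FPKM with DMSO and 6.5 to 242 FPKM untreated, and was lower in 8 of 8 pairs by -3.45 ± 0.46 (limma, adjusted p = 0.00651). Its near copy Atp6v0c-ps2 ran the other way, with 178 to 319 FPKM with DMSO and 22.3 to 294 FPKM untreated, and was higher in 7 of 8 pairs. Their sum averaged 242 ± 51.4 FPKM with DMSO and 270 ± 37.4 FPKM untreated (SD, n = 8 each). On the log2 scale the sum differed by -0.17 ± 0.15 (SD), lower in 7 of 8 pairs, with an exact sign-flip permutation p of 0.0234 (two-sided; adjusted over the 3 values 0.0234, smallest possible 0.00781). The split between the 2 loci therefore moved far more than their total. Which reads were given to which copy was not tested.

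**Figure D4:**
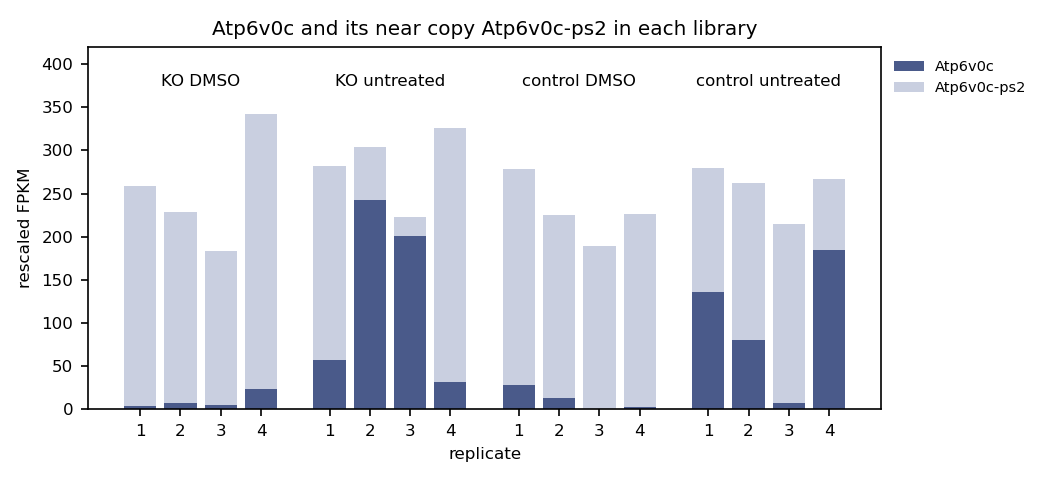
Rescaled FPKM of Atp6v0c (dark) with that of Atp6v0c-ps2 (light) stacked on it in each library, with the DMSO group left of the untreated group in KO and in control cells. The dark share is small in all 8 DMSO libraries, at most 28.4 FPKM, and reaches 242 FPKM in the untreated ones, while the total stays between 183 and 342 FPKM.

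Genes that were higher with DMSO were few and their changes small. Cstf3, a subunit of the complex that cuts the 3′ ends of messages, averaged 3.85 ± 0.51 FPKM with DMSO and 2.93 ± 0.57 FPKM untreated, a difference of 0.31 ± 0.07 (limma, adjusted p = 0.0303). Mgea5, the enzyme that removes O-GlcNAc from proteins, averaged 21.5 ± 2.39 FPKM with DMSO and 17.9 ± 1.54 FPKM untreated (0.25 ± 0.06). Ulk2, a kinase that starts autophagy, averaged 7.62 ± 1.31 FPKM with DMSO and 6.32 ± 1.03 FPKM untreated (0.23 ± 0.05). Itch, a ubiquitin ligase, rose by 0.23 ± 0.05, Birc2, which encodes the ligase cIAP1, by 0.20 ± 0.05, and Spopl, an adaptor of a cullin ligase, by 0.16 ± 0.04. With the GC content and length trend described below removed, Spopl (0.08 ± 0.04), Zfp148 (0.09 ± 0.03) and Zfp442 (0.20 ± 0.05) no longer passed. The pseudogene Pisd-ps3 (0.27 ± 0.04), the zinc finger genes Zfp442 (0.22 ± 0.05) and Zfp148 (0.19 ± 0.05), AU041133 (0.22 ± 0.05), the sorting nexin gene Snx25 (0.18 ± 0.04) and Parp12 (0.18 ± 0.04) make up the rest.

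In stress lists, single members passed, and 2.56% of all genes tested were lower. Of the apoptosis and p53 target genes, 3 of 19 were lower. These were Bbc3, which encodes the death activator PUMA (-0.42 ± 0.09), Bcl2l1, which encodes the survival protein Bcl-xL (-0.21 ± 0.05), and Gadd45b (-0.29 ± 0.06). Gdf15, a stress cytokine in the ATF4 list, averaged 3.12 ± 2.22 FPKM with DMSO and 4.67 ± 2.08 FPKM untreated (-0.52 ± 0.10, adjusted p = 0.0221), and it was the only one of 19 tested members to pass. In the NRF2 antioxidant list, 1 of 20 passed, which was Tkt, an enzyme of the pentose phosphate pathway (-0.23 ± 0.04). Bag3 was the 1 of 17 heat shock genes (-0.29 ± 0.06), Mt1 the 1 of 10 metallothionein and metal response genes (-0.36 ± 0.08), Tst the 1 of 14 genes of sulfur metabolism (-0.26 ± 0.06) and Slc2a1, the glucose transporter GLUT1, the 1 of 17 hypoxia genes (-0.21 ± 0.05). Slc2a1 and Tkt are also the 2 of 24 in the glycolysis and pentose phosphate list. With the GC content and length trend removed, Bbc3 (-0.21 ± 0.06), Bcl2l1 (-0.14 ± 0.04), Gadd45b (-0.17 ± 0.04), Bag3 (-0.22 ± 0.05), Mt1 (-0.27 ± 0.07), Tst (-0.22 ± 0.06) and Slc2a1 (-0.18 ± 0.04) no longer passed, with adjusted p values of 0.0534 to 0.105, while Tkt (-0.19 ± 0.03) and Gdf15 (-0.36 ± 0.08) still passed. No member of the endoplasmic reticulum stress list passed (0 of 20).

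Genes of macrophage function gave few calls. Macrophage identity genes were lower in 3 of 18 (16.7%, against 2.56% of all genes tested), which were Spi1, the transcription factor PU.1, and the complement genes C1qa and C1qc. Spi1 averaged 50.8 ± 9.34 FPKM with DMSO and 62.1 ± 4.88 FPKM untreated (-0.30 ± 0.06, limma adjusted p = 0.0173). C1qc averaged 113 ± 52.3 FPKM with DMSO and 136 ± 55.5 FPKM untreated (-0.29 ± 0.06), and C1qa differed by -0.24 ± 0.05. With the GC content and length trend removed, C1qa no longer passed (-0.06 ± 0.04, adjusted p = 0.46). In bulk RNA, fewer cells of a type and less RNA per cell cannot be told apart. Csf1r, Adgre1 and Cd68 did not pass, with 108, 109 and 818 FPKM with DMSO and 114, 111 and 889 FPKM untreated.

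None of the tested members of the inflammatory cytokine and chemokine list passed (0 of 15). The chemokine gene Cxcl5, which is not in that list and was chosen after its values were seen, did, at 2.96 FPKM with DMSO and 1.78 FPKM untreated (0.55 ± 0.13, limma adjusted p = 0.0429). Tnf stood at 2.38 FPKM with DMSO and 2.33 FPKM untreated, and Ccl2 at 6.13 ± 5.43 FPKM with DMSO and 4.18 ± 3.94 FPKM untreated (0.52 ± 0.16, adjusted p = 0.0939). Toll-like receptor and pattern recognition genes did not pass either (0 of 19). The interferon list gave 1 of 23, Oas3, at 3.47 ± 0.64 FPKM with DMSO and 4.88 ± 1.33 FPKM untreated (-0.38 ± 0.08). MHC class II gave 1 of 7, H2-Eb1 (-0.31 ± 0.06). Over all genes tested, 2.56% were lower.

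The programmes that rosiglitazone and IL4 are used to switch on gave no call before the GC content and length trend was removed. For PPARγ target genes the count was 0 of 15, with a median of -0.06. Plin2, a lipid droplet coat protein, came nearest with 338 ± 124 FPKM with DMSO and 399 ± 162 FPKM untreated (-0.22 ± 0.05, adjusted p = 0.0508), followed by Nr1h3 (-0.18 ± 0.04, adjusted p = 0.0525). Fabp4 differed by -0.21 ± 0.07, Cd36 by -0.16 ± 0.07 and Lpl by -0.06 ± 0.06. After the GC content and length trend described below was removed, 2 of the 15 passed, both lower, against 138 lower of 10027 genes tested. These were Plin2 (-0.17 ± 0.04, limma adjusted p = 0.0390) and Fabp4 (-0.25 ± 0.06, limma adjusted p = 0.0462). For IL4 response genes the count was 0 of 10, and Mrc1 had 41.3 FPKM with DMSO and 42.7 FPKM untreated. A p that misses the threshold does not show that these genes were equal.

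Lipid and energy genes gave few calls, and 2.56% of all genes tested were lower. Apoe and Pltp were the 2 of 11 LXR targets that fell (-0.36 ± 0.07 and -0.29 ± 0.06). Apoe averaged 2153 ± 552 FPKM with DMSO and 2747 ± 586 FPKM untreated. Lists with no call were mitochondrial fatty acid oxidation (0 of 20), cholesterol synthesis (0 of 24), fatty acid and triglyceride synthesis (0 of 16) and oxidative phosphorylation (0 of 30). Ribosomal proteins gave 1 of 31, Rplp1 (-0.55 ± 0.11), and the lysosomal list 1 of 29, Tfeb, a regulator of lysosome genes (-0.28 ± 0.05). The matrix, adhesion and cytoskeleton list gave 2 of 27, Vim (-0.23 ± 0.05) and Mmp13 (-0.24 ± 0.06). The glucocorticoid and circadian list (0 of 14) and the AhR list (0 of 11) gave none. Of 34 lists with tested members, 18 had at least 1 call, and 28 medians lay within 0.1 of 0. Every call in the lists was lower, as were 258 of the 279 calls over all genes tested.

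Among markers of other cells, Siglecf alone passed. None of the 10 tested mesothelial and fibroblast markers passed (0), and the list's sums were 27.4 to 116 FPKM in KO cells with DMSO, 24.0 to 94.4 FPKM in untreated KO cells, 3.56 to 39.0 FPKM in control cells with DMSO and 3.08 to 47.5 FPKM in untreated control cells. Neutrophil markers (0 of 2), dendritic cell markers (0 of 1) and markers of resident peritoneal macrophages (0 of 5) gave no call. Siglecf, the only eosinophil marker tested, averaged 4.82 ± 0.85 FPKM with DMSO and 6.90 ± 1.64 FPKM untreated (-0.42 ± 0.06, limma adjusted p = 0.00651). The 9 eosinophil markers summed to 3.5 to 6.46 FPKM with DMSO and to 4.13 to 9.48 FPKM untreated, with 2 of them at 0 throughout. Their part in the fall of Siglecf was not tested.

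The 2 genotypes were not distinguished in their response. The test of the difference, KO minus control, called no gene (0 in limma), 528 genes had an unadjusted p under 0.05 (5.23%), and the smallest adjusted p was 0.715. That p belonged to a predicted gene model. The 4 named genes with the smallest p were Hist1h2af, at -0.93 ± 0.13 in KO cells and -0.10 ± 0.13 in control cells, Lxn (0.17 and -0.23), Cracr2a (-0.22 and 0.47) and Dtwd1 (0.16 and -0.26), each with an adjusted p of 0.748. Taken alone, KO cells gave 6 calls (0.0595%), all lower, which were Id3, Dhrsx and the H2A genes Hist2h2ac, Hist1h2ad, Hist1h2ae and Hist1h2af. Control cells alone gave 1 (0.00991%), Lsp1, an actin-binding protein of leukocytes, at 29.3 ± 6.65 FPKM with DMSO and 41.2 ± 8.87 FPKM untreated (SD, n = 4; -0.48 ± 0.06, adjusted p = 0.0285). Id3 fell by 0.81 ± 0.12 in KO cells and differed by -0.68 ± 0.12 in control cells, and Junb differed by -0.86 ± 0.14 in KO cells and by -0.53 ± 0.14 in control cells. With 4 pairs per genotype, unadjusted p values under 0.05 were met by 1044 genes in KO cells and 1973 in control cells. Counts of 0 in the difference do not show equal responses.

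The sizes of the vehicle and agonist responses are given side by side, since these comparisons share libraries. IL4 against untreated cells over the same number of pairs called 4755 of 10095 genes (47.1%; 24.7% higher and 22.4% lower), and rosiglitazone against DMSO in control cells over 4 pairs called 781 of 9701 (8.05%; 4.7% higher and 3.35% lower), against 279 (2.77%) for DMSO over 8 pairs. The median absolute difference over all genes tested was 0.14 for IL4, 0.10 for rosiglitazone and 0.07 for DMSO. Differences beyond 1 on the log2 scale, passed or not, were found in 207 genes with IL4, 34 with rosiglitazone and 10 with DMSO. Of the 10 with DMSO, 4 passed, all lower. Lipa, at 2.25 ± 1.73 (SE; limma, adjusted p = 0.471), did not pass and is listed at 0 in 6 libraries. The rosiglitazone values come from 4 pairs and the DMSO values from 8. Over the 4 control pairs alone, the median absolute difference was 0.095 for DMSO, near the 0.096 for rosiglitazone. In those pairs DMSO gave 1 call, and 8 genes differed by more than 1, passed or not. In the list of clustered histone genes IL4 gave 7 higher and 2 lower of 21, with a median of 0.25. Among immediate early genes IL4 gave 11 higher and 5 lower of 17.

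Genes that fell were short and rich in G and C. The longest annotated transcript had a median GC content of 56.5% and a length of 1809 bases for the lower genes, 44.1% and 3788 bases for the higher genes, and 49.3% and 3294 bases for all genes tested. The share of genes that were lower was 0.361% below 45% GC, 0.982% from 45 to 50%, 2.34% from 50 to 55%, 5.77% from 55 to 60% and 17.7% at 60% or more. By length it was 10.2% under 1000 bases and 0.233% at 5000 bases or more. Within pairs, genes of 55% GC or more lay below genes under 45% GC in 6 of 8, with a mean gap of -0.12 ± 0.13 in log2 (SD, n = 8, exact sign-flip permutation p = 0.0469, two-sided). Genes under 2000 bases lay below those of 5000 or more in 6 of 8 pairs as well (-0.16 ± 0.22, exact sign-flip permutation p = 0.0781). Adjusted over these 2 relations, both p-values were 0.0781. The GC gaps of KO pairs 1 to 4 were -0.13, -0.24, -0.34 and -0.03, and KO pairs 2 and 3 are those with the low sums. Control pairs 1 to 4 had gaps of 0.01, 0.07, -0.11 and -0.18. How these gaps relate to the uneven fall of histone messages among pairs was not tested.

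**Figure D5:**
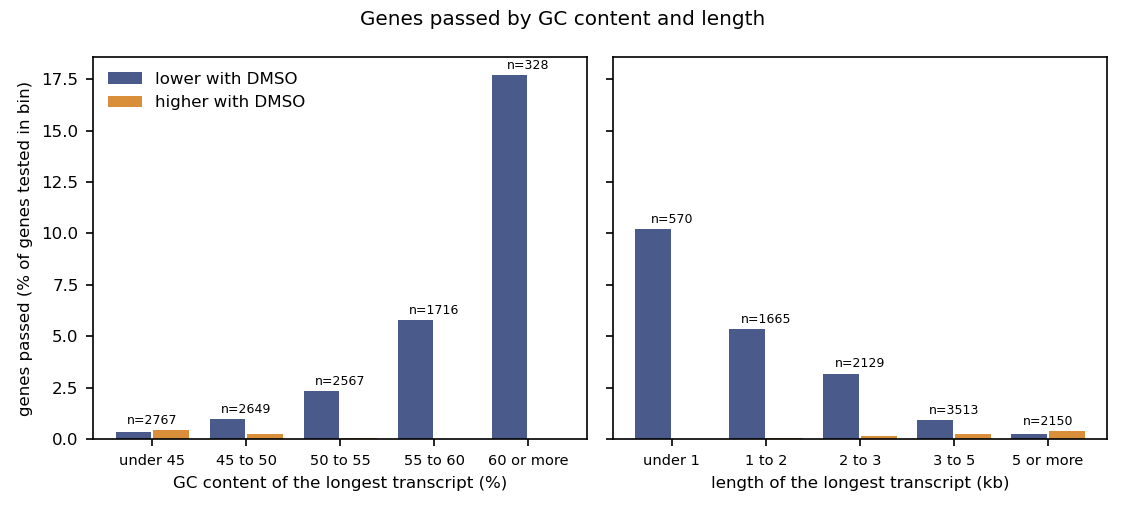
Percent of the tested genes in each bin of GC content (left) and of length (right) of the longest transcript that were lower (dark blue) or higher (orange) with DMSO, with the number of genes tested above each bin. The share of lower genes climbs to 17.7% in the bin of 60% GC or more and is 10.2% in the bin under 1000 bases.

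After a smooth trend on GC content and length was removed from each library, a setting added after the data were seen, 138 genes were lower and 44 higher, and 123 of these 182 were among the 279. Id3 (-0.64 ± 0.09), Junb (-0.53 ± 0.08), Jund (-0.39 ± 0.05), Crlf2 (-0.39 ± 0.06), Scand1 (-0.61 ± 0.09) and Hist2h2ac (-0.63 ± 0.09) remained past the threshold of 0.05, with adjusted p values of 0.00881 to 0.0127. In the histone list 10 of 21 were lower and in the immediate early list 4 of 17. Of the 60 histone genes by symbol, 13 were lower, against 25 before. Over all genes tested, 138 of 10027 were lower, against 258 of 10087 before. Spi1 and C1qc remained lower (-0.19 ± 0.04 and -0.15 ± 0.03), while C1qa, the stress genes given above, Ier2 (-0.21 ± 0.06), Apoe (-0.22 ± 0.05), Pltp (-0.20 ± 0.05) and Tfeb (-0.12 ± 0.04) no longer passed. The part that GC content, length or library quality plays in these calls was not tested.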

How the data were processed

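RNA was sequenced from cultured mouse peritoneal macrophages. The authors deposited 1 table of FPKM per gene symbol for all libraries; the submitters' processing notes name TopHat2, featureCounts, edgeR and mm9, without versions or roles. No source used here says how reads matching several genes were counted. Ratios of low FPKM between libraries lay on ratios of whole numbers up to 5 for 64.6% to 76.6% of values (within 0.1%), too few to recover counts, so no interval for counting error is given. The steps put relative depth at 0.677 to 1.54.

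Of 24302 symbols, 25 are dates (0.135% of FPKM) and were skipped. Libraries were rescaled by the median ratio to each gene's geometric mean. Genes with 1 FPKM or more in 3 or more of the 16 libraries were fitted in limma 3.58.1 (R 4.3.3) on log2(rescaled FPKM + 1), with an intensity trend and a block for each pair. Tests are two-sided, and p was adjusted by Benjamini and Hochberg over all genes tested. Single values were tested by exact sign flips of the 8 pairs.

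Libraries of the same number correlated above 0.1 in 7 of 8 pairs (residual r from 0.05 to 0.75, lowest in control pair 2). Of the 8 untreated libraries, 6 correlated best with the DMSO library of their own number. Untreated KO library 1 had r of 0.18 with its own number and up to 0.30 with another. Untreated control library 2 had 0.05 and up to 0.16. The Y-linked gene Ddx3y was found in both libraries of control pair 1 (rescaled FPKM 17.2 with DMSO and 18.6 untreated) and of KO pair 2 (19.5 with DMSO and 18.1 untreated) and was at most 0.0281 elsewhere. Pairing follows the numbers and the 4 mice per genotype of the series text. Where libraries share a mouse, p-values measure the spread between these mice.

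Named genes are Pparg, up to 12 per direction that passed with all 8 pairs of one sign and the largest difference, up to 3 members per list that passed (otherwise the one with the smallest p), 4 for the genotype difference, and Rn45s. Predicted models were skipped. Other genes were named after their values were seen. The comparison, gene lists and tests were chosen with earlier results of these data known. GC content and length are of the longest GENCODE vM21 transcript (99.4% of genes matched), and 21 of 24 named genes matched a RefSeq promoter. The fit was tested on simulated data.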

Additional observations from a re-analysis of the deposited data

Results flagged for a closer look

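Within each group of 4 libraries, the levels of 69 named genes were searched for a library set apart from the other 3 by Dixon's criterion at the 95% level. This gave 26 cases in 276 checks, where chance gives about 1 in 20. The 69 checks over the 8 pair differences gave 0. All levels are rescaled FPKM.

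Among KO cells with DMSO, library 4 stood apart in Scand1 (1.69, others 0.342 to 0.468), Spi1 (63.2, others 44.3 to 46.2), Batf3 (3.79, others 1.83 to 2.05) and Oas3 (3.00, others 3.62 to 3.73). Library 2 was low in Egr2 (14.7, others 16.2 to 16.4), and library 1 was high in Sqle (26.5, others 18.7 to 19.6). Among untreated KO cells, library 1 was low in Bag3 (7.34, others 9.81 to 10.2) and had Rn45s at 180, which is listed at 0 in the other 3. Library 2 was high in Hist1h2af (2.46, others 1.07 to 1.24). Library 3 was low in Crlf2 (26.7, others 32.8 to 33.4) and high in Zfp148 (6.46, others 4.81 to 5.01).

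Among control cells with DMSO, library 1 was low in Snx25 (6.18, others 6.74 to 6.85) and high in Lxn (8.96, others 7.17 to 7.42). Library 3 was high in H2-Eb1 (26.8, others 10.5 to 11.5). Library 4 was low in Oas3 (2.07, others 3.73 to 3.99) and high in Mmp13 (1.11, others 0.564 to 0.617). Among untreated control cells, library 1 was high in Hist2h2aa1 (11.8, others 4.47 to 5.15), Hist1h4a (8.71, others 3.58 to 4.30), Hist1h4i (7.92, others 3.09 to 3.63) and Junb (21.6, others 13.1 to 14.4). Library 3 was high in C1qa (66.8, others 27.6 to 32.3), C1qc (166, others 84.9 to 87.5), Ulk2 (7.49, others 6.21 to 6.39) and Icam2 (2.18, others 1.47 to 1.58) and low in Gadd45b (36.9, others 44.3 to 45.1). Library 4 was low in S100a8 (13.8, others 19.0 to 19.7).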

How the results depend on the processing

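The 279 calls for DMSO were 115 on deposited FPKM, 37 with no filter on low values, 0 with no replicate block, 625 (160 higher, 465 lower) with the spread taken from 28 libraries, 2575 without the pairs with Rn45s at 0, 32 without the 2 low-sum pairs, 182 with the GC and length trend removed, and 46 to 759 leaving out 1 pair. The other settings gave 270 to 328. In control cells, 1 call became 35 on deposited FPKM, 0 with no filter, 0 with no block, 3 with a robust prior, 112 with 28 libraries, 926 without the Rn45s pairs, 2 without the low-sum pairs, 2 with the trend removed and 0 to 1 leaving out 1 pair. In KO cells, 6 became 70 on deposited FPKM, 0 with a pseudocount of 0.1, 0 with no filter, 26 with a stricter filter, 0 with no block, 84 with 28 libraries, 22 with 0 as missing, 2 without the Rn45s pairs, 0 without the low-sum pairs, 0 with the trend removed and 0 to 28 leaving out 1 pair. The genotype difference was 19 on deposited FPKM, 1 without the Rn45s pairs and 0 to 1 leaving out 1 pair. IL4 gave 1147 on deposited FPKM, and rosiglitazone 356 with no block. The cause was not tested, beyond fewer pairs where pairs were left out.

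Of the 47 named genes that passed, 0 changed sign in a setting that could be fitted, and of the 22 that did not pass, 10 did. The genes named for the largest difference were chosen with all 8 pairs of one sign. Leaving out pairs could hardly change their sign, so for them the 0 was largely set by the choice. The counts of 0 and 10 are therefore no test of how stable the signs are. With no block, 47 no longer passed, and on deposited FPKM 35. The trend removal and the low-sum setting were added after the data were seen. Depth in reads is unknown, so counting error could not be set beside low genes such as Scand1.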

Other observations

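The genes below were chosen after their values were seen and stand for no group. Il3ra, the IL3 receptor, averaged 10.1 ± 2.75 FPKM with DMSO and 15.7 ± 2.56 FPKM untreated (SD, n = 8 each; log2 difference -0.61 ± 0.09 SE, limma adjusted p = 0.00856). Csf2ra, a chain of the GM-CSF receptor, differed by -0.39 ± 0.07. With Crlf2 and Dhrsx (-0.40 ± 0.07) these genes were lower in 8 of 8 pairs. In humans their counterparts lie together in a pseudoautosomal region, while mouse Crlf2 lies on chromosome 5. Crlf2, Il3ra and Csf2ra have GC contents of 65.6%, 60.7% and 57.8%. After removal of the GC and length trend they differed by -0.39, -0.48 and -0.30. A shared cause was not tested. Gpr183, an oxysterol receptor gene, fell too (-0.44 ± 0.06), with a GC content of 44.9%. With the GC and length trend removed it differed by -0.44 ± 0.05.

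Among other genes, Cdkn1c, a brake on the cell cycle, averaged 116 FPKM with DMSO and 156 FPKM untreated (-0.42 ± 0.05, adjusted p = 0.00494 in limma). Fabp7, a lipid carrier, averaged 9.11 FPKM with DMSO and 14.8 FPKM untreated (-0.63 ± 0.11). Cxcl5, a chemokine gene, was the only higher gene beyond 0.5, with 2.96 FPKM with DMSO and 1.78 FPKM untreated (0.55 ± 0.13, higher in 7 of 8 pairs), and it no longer passed with the trend removed (adjusted p = 0.0534). Of 45 tested symbols of small structural RNAs, 3 were lower and 0 higher, with a median of -0.05. Over all genes tested 2.56% were lower, and among those under 1000 bases 10.2%. The 3 were Rnu11 (-1.23 ± 0.21), Rpph1 (-0.69 ± 0.15) and Snord15a (-0.69 ± 0.16). With the GC and length trend removed, 2 of the 45 were lower and 2 higher, against 138 and 44 of 10027 genes tested. Rpph1 no longer passed (-0.35, adjusted p = 0.0569 in limma), and Snord17 (0.57, adjusted p = 0.0249) and Scarna6 (0.42, adjusted p = 0.0422) passed as higher.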
